A study of Mus musculus with 10 samples.

Results

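The genes described here encode Argonaute proteins and the other core proteins that make microRNAs (miRNAs) and use them to silence mRNAs. They were chosen by name, namely Ago1, Ago2, Ago3, Ago4, Dicer1, Drosha, Dgcr8, Tnrc6a, Tnrc6b and Tnrc6c. Of these 10 genes, 8 had a row among the 21437 genes of the expression table. Ago2 and Dicer1 had no row in the table used here and were not analysed here. Ago1, Ago4, Dgcr8, Tnrc6a and Tnrc6c, 5 of the 8, stayed below 1 FPKM in every library, a unit that scales the fragments of a gene to its exon length and to all mapped fragments of the library. Ago3, Drosha and Tnrc6b reached that level in 2 or more of the 10 libraries and were tested, among 8726 genes in all.

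RNA-seq had been done on mouse oocytes in metaphase II (MII) and on embryos of 2 and 4 cells, collected 16, 40 and 55 h after hCG injection into 7-week-old females. The embryos were controls or had been depleted of Ago2 (Ago2 kd) by injecting zygotes with siRNA against Ago2 together with anti-AGO2 antibody, and each of the 5 groups had 2 libraries. The control embryos carry the genotype wild type in the labels, and the methods name a scrambled siRNA as negative control. The labels give the strain ICR for all libraries, whereas the methods give ICR for the oocytes and F1 crosses for the embryos, so strain and stage cannot be told apart between oocytes and embryos. The replicates are separate samples by their labels, which do not tie them to separate collections, so p-values measure the spread between these libraries only. Because Ago2 had no row, the depletion itself could not be checked here, and the groups are called by their labels. The study reports the depletion from q-PCR, immunofluorescence and its RNA-seq.

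In the miRNA pathway, DROSHA and its RNA-binding partner DGCR8 cut primary transcripts into hairpins in the nucleus, and DICER1 cuts the hairpins into short duplexes in the cytoplasm. One strand is loaded into an Argonaute protein, and TNRC6 scaffold proteins bound to Argonaute recruit deadenylases and decapping factors to the mRNA. AGO2 is the Argonaute that cleaves mRNAs paired to endogenous siRNAs, a class of small RNAs on which mouse oocytes depend, whereas miRNA activity in full-grown oocytes is known to be weak.

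Tnrc6b lies at chr15:80711313-80941085 on the plus strand of GRCm38. Its transcript Tnrc6b-201 is 17332 bases long, of which 11609 form the 3′ UTR. Of 16 miRNAs paired with Tnrc6b in a shortened listing, 15 had a mature sequence in RefSeq, and these fell into 8 groups by seed (bases 2 to 8, in capitals). They are shown because Tnrc6b moved most among the genes described here and is itself a listed miRNA target. The seed AGCAGCA was shared by miR-15a-5p, miR-15b-5p, miR-16-5p and miR-195a-5p, AACACUG by miR-141-3p and miR-200a-3p, GUGCAAA by miR-19a-3p and miR-19b-3p, UCAAGUA by miR-26a-5p and miR-26b-5p, and UUUCAGU by miR-30a-3p and miR-30e-3p. One miRNA of each group follows.
mmu-miR-16-5p: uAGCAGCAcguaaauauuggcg
mmu-miR-141-3p: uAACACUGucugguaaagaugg
mmu-miR-19b-3p: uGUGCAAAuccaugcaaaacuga
mmu-miR-26a-5p: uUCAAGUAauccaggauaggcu
mmu-miR-30a-3p: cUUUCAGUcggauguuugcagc
mmu-miR-322-3p: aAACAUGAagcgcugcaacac
mmu-miR-101a-3p: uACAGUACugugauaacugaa
mmu-miR-673-5p: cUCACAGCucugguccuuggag

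The reverse complement of each seed, searched on the mRNA strand, occurred in the Tnrc6b 3′ UTR 4 times for the seeds of miR-16-5p, miR-141-3p and miR-19b-3p, 2 times for those of miR-26a-5p, miR-30a-3p and miR-673-5p, 5 times for that of miR-322-3p and 3 times for that of miR-101a-3p. Such matches are common in long 3′ UTRs. Among 34 other genes with a 3′ UTR at least as long, the share that held a match ran from 50.0% for miR-101a-3p to 82.4% for miR-16-5p. The first match to the miR-16-5p seed, at chr15:80930521-80930527 in the 3′ UTR, and the first to the miR-26a-5p seed, at chr15:80929714-80929720, are shown with 7 flanking bases on each side and the match in capitals.
Tnrc6b match to miR-16-5p: aagaagcTGCTGCTcacctct
Tnrc6b match to miR-26a-5p: cttgaaaTACTTGAatcatga

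Ago3 lies at chr4:126331704-126429556 on the minus strand, next to Ago1 (chr4:126435012-126468583) and Ago4 (chr4:126489541-126533472), which lie on the same strand. Of the endogenous siRNAs sequenced in mouse oocytes and embryos, 18 were assigned to Ago3 in a shortened listing. None matched the transcript Ago3-201 exactly in either direction. At best, 3 differed from it by 1 base and 15 by 2. Of the 18, 10 had the sense of the mRNA, with which they cannot pair, and 8 were antisense. All 3 with 1 difference were sense, and all 8 antisense ones had 2 differences. In all, 15 of the 18 fell on a single stretch of 24 bases in the 3′ UTR, chr4:126344913-126344936, 9 in the sense and 6 in the antisense direction. The stretch, written as in the mRNA, and 3 of these small RNAs are shown, with the bases that differ from Ago3 in capitals.
Ago3 stretch: gaactctttccttgtatccctcct
sense small RNA, 22 bases: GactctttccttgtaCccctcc
sense small RNA, 21 bases: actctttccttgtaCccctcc
antisense small RNA, 20 bases: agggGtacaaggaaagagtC
Of the 15, 10 matched transcripts of 13 or 14 other genes exactly, in either direction. Across all 18, 13 matched another gene exactly and were thus closer to it than to Ago3.

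The libraries were checked before the results. The summed FPKM of a library was 450124 and 458874 in MII oocytes and between 178681 and 326352 in embryos. The 8 oocyte marker genes, all of which had rows, summed to 6880 and 8351 FPKM in oocytes, to between 1159 and 1697 in 2-cell embryos and to between 5.13 and 37.5 in 4-cell embryos. Of 10 cumulus cell markers 2 had a row. Foxl2 was listed at 0 in all libraries, and Nr5a2 lay between 0.0826 and 0.257 FPKM except for 34.6 in 4-cell control 1. With these 2 rows alone, the presence of cumulus cells could not be decided for any library. In 4-cell Ago2 kd 1, 14.6% of the genes above 10 FPKM in the other replicate were below 0.1 FPKM, against 1.61% to 5.81% in the other 9 libraries. Values at or near 0 are not read as absence, because genes that every cell uses were also near 0 in some or all libraries. Gapdh did not exceed 0.167 FPKM in any library, and Hspa8 did not exceed 0.982 FPKM. Eef2 was listed at 0 in oocytes, in all 2-cell libraries and in 4-cell Ago2 kd 1, but measured 115 and 127 FPKM in 4-cell controls. Actb ran from 0.331 FPKM in 2-cell control 1 to 91.1 FPKM in 4-cell control 1.

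Tnrc6b, which encodes one of the TNRC6 scaffold proteins, had the highest level in oocytes among the 8 genes with a row. It measured 9.16 and 9.44 FPKM in MII oocytes. The 2-cell controls held 0.614 and 1.57 FPKM, whereas 4.31 and 5.42 FPKM were found after Ago2 kd at the same stage. It was listed at 0 in all 4 libraries of 4-cell embryos, control and Ago2 kd. The oocyte mean, 9.30 ± 0.197 FPKM (SD, n = 2), was higher than that of 85.9% of the genes in the table. The spread between the oocyte libraries is uncertain, as given under the processing of the data. Both oocyte libraries lay above all others. Both 2-cell Ago2 kd libraries lay above both 2-cell control libraries, and these 3 groups did not overlap. How many of all genes had such an order was not counted, and no result is drawn from it. The 2-cell control mean was 1.09 ± 0.675 FPKM (SD, n = 2), and the 2-cell Ago2 kd mean was 4.86 ± 0.785 FPKM (SD, n = 2).

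**Figure D1:**
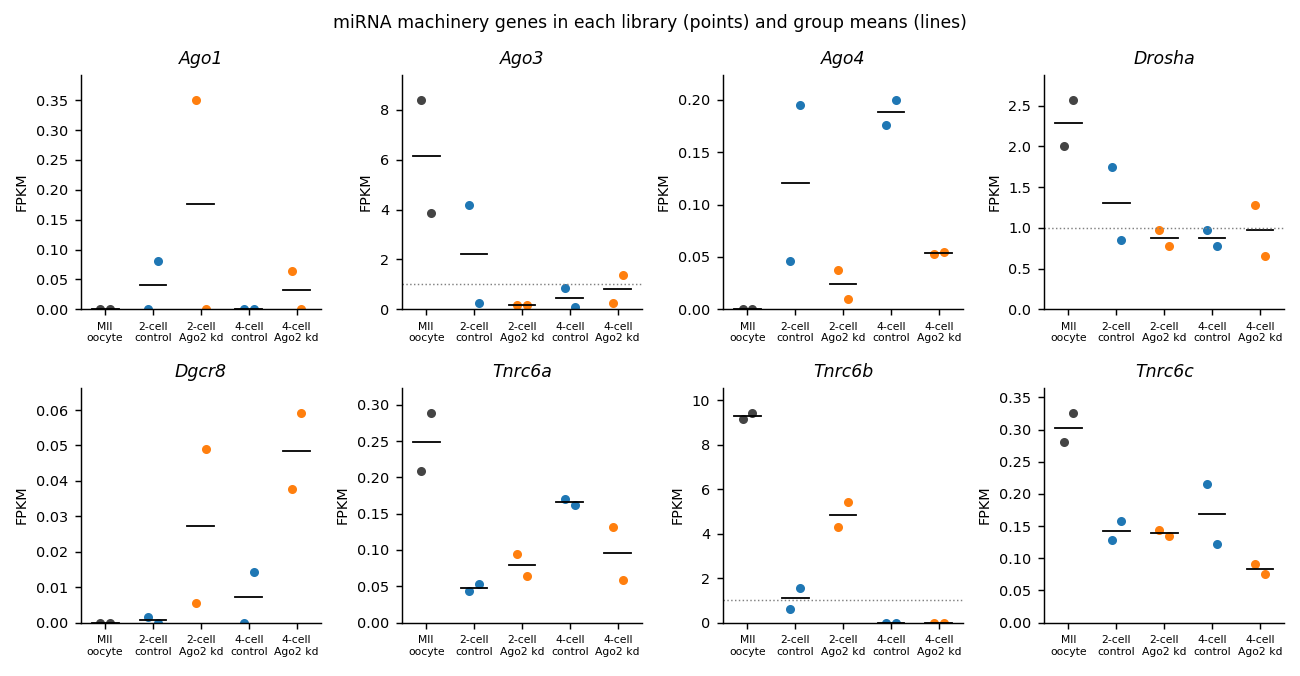
Each panel gives the FPKM of 1 gene on its own linear axis, with a point for each of the 2 libraries of a group and a line at the group mean; the dotted line marks 1 FPKM where the axis reaches it. Tnrc6b was listed at 0 in all 4-cell libraries and lay higher in both 2-cell Ago2 kd libraries (4.31 and 5.42 FPKM) than in both controls of that stage (0.614 and 1.57 FPKM). How many of all genes had this order was not counted.

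Ago3, an Argonaute without the strong slicing activity of AGO2, came next. Oocytes held 8.41 and 3.85 FPKM. At the 2-cell stage, controls held 4.17 and 0.241 FPKM and Ago2 kd libraries 0.156 and 0.173 FPKM, and at the 4-cell stage, controls held 0.861 and 0.0711 FPKM and Ago2 kd libraries 0.245 and 1.39 FPKM. The replicates of oocytes, 2-cell controls and both 4-cell groups lay far apart. The value of 2-cell control 1 fell between those of the 2 oocyte libraries, whereas 2-cell control 2 lay near the Ago2 kd embryos. Only the 2-cell Ago2 kd libraries were close to each other, and both lay below both 2-cell controls. How many of all genes were separated in this way was not counted, and no result is drawn from this order.

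Ago1 and Ago4, the neighbours of Ago3, were barely detected. Ago1 was listed at 0 in 7 libraries, with 0.0809 FPKM in 2-cell control 2, 0.351 in 2-cell Ago2 kd 1 and 0.0641 in 4-cell Ago2 kd 1. Ago4 was listed at 0 in both oocyte libraries. It measured 0.0460 and 0.195 FPKM in control against 0.0378 and 0.0102 in Ago2 kd libraries at the 2-cell stage, and 0.176 and 0.200 against 0.0527 and 0.0549 at the 4-cell stage. Ago4 was thus lower in both Ago2 kd libraries than in both controls at each stage, at levels of at most 0.200 FPKM. The share of all genes separated in this way was not counted, and no result is drawn from this order.

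Drosha, the nuclear RNase of the pathway, varied least among the 3 genes tested. It measured 2.00 and 2.57 FPKM in MII oocytes. Control and Ago2 kd libraries stood at 1.75 and 0.854 against 0.973 and 0.780 at the 2-cell stage, and at 0.972 and 0.779 against 1.28 and 0.660 at the 4-cell stage. Both oocyte libraries lay above all embryo libraries, and the 4 groups of embryos overlapped one another. Its partner Dgcr8 was listed at 0 in 4 libraries and did not exceed 0.0592 FPKM, a value reached in 4-cell Ago2 kd 2. It was higher in both Ago2 kd libraries than in both controls at each stage, with 0.00552 and 0.0489 against 0.00162 and 0 FPKM at the 2-cell stage and 0.0377 and 0.0592 against 0 and 0.0143 FPKM at the 4-cell stage. As for Ago4, the share of all genes separated in this way was not counted, and no result is drawn from this order. Dgcr8 was listed below Drosha in every library, although their proteins act in 1 complex.

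Tnrc6a and Tnrc6c, which encode the other two TNRC6 proteins, were low throughout. Tnrc6a measured 0.209 and 0.289 FPKM in oocytes, and between 0.0429 and 0.170 FPKM in the 8 embryo libraries, with both 2-cell controls (0.0429 and 0.0535) at the bottom. Tnrc6c measured 0.280 and 0.326 FPKM in oocytes and between 0.0750 and 0.215 FPKM in embryos, with both 4-cell Ago2 kd libraries (0.0904 and 0.0750) at the bottom. In each of the 3 Tnrc6 genes, both oocyte libraries lay above all embryo libraries, as they did for Drosha. The share of all genes with this order was not counted. Of all genes tested, 26% were called lower from MII oocytes to 4-cell controls, so the order is not read as a trait of this family.

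By mean FPKM, a unit that is scaled to gene length, the order in oocytes was Tnrc6b (9.30), Ago3 (6.13 ± 3.22), Drosha (2.29 ± 0.405), Tnrc6c (0.303) and Tnrc6a (0.249), with Ago1, Ago4 and Dgcr8 listed at 0 (SD, n = 2 each). The libraries of Tnrc6b and Ago3 did not overlap, nor did those of Ago3 and Drosha. Those of Tnrc6c and Tnrc6a did, with Tnrc6a at 0.289 FPKM in 1 library and Tnrc6c at 0.280 in 1. The split of values between the 2 oocyte libraries is uncertain, as given under processing, and so are these SDs and overlaps. In 2-cell control embryos the means of Ago3 (2.20 ± 2.78), Drosha (1.30 ± 0.634) and Tnrc6b (1.09 ± 0.675) overlapped. In 4-cell control embryos Drosha (0.875 ± 0.136) and Ago3 (0.466 ± 0.559) led, again with overlapping libraries.

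The change from MII oocytes to 2-cell control embryos, in which maternal mRNAs are lost, was tested with limma on log2(FPKM + 1), and fold changes below are of FPKM + 1, which understates the change of low genes. Tnrc6b fell by 2.34 on the log2 scale (SE 0.35, adjusted p = 0.00485). It was the only gene of the 3 that passed after Benjamini-Hochberg adjustment, and 14% of all genes tested were called lower in this comparison. For Ago3 the difference was -1.42 (SE 0.75, 95% interval -3.20 to 0.37, adjusted p = 0.259) and for Drosha -0.54 (SE 0.34, adjusted p = 0.352), so neither difference could be told from the spread between libraries. The call for Tnrc6b was lost when each library was scaled to the same sum (log2 change -1.84, adjusted p = 0.0504). That scaling moved the median of all genes from -0.06 to 0.38 and turned 554 genes called higher and 1224 called lower into 1036 and 571, while scaling to the same median gave 781 and 774 and quantile normalization 683 and 758.

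From 2-cell to 4-cell control embryos, no gene of the 3 passed after adjustment by limma. Tnrc6b was listed at 0 in both 4-cell control libraries, and the difference had an unadjusted p of 0.0229 and an adjusted p of 0.0580. In this comparison 17.1% of all genes were called lower after adjustment and 20.6% at an unadjusted p below 0.05, and no fold is given against values of 0. The split of 1791 genes called higher and 1495 lower became 1351 and 1774 when libraries were scaled to the same median. Leaving out 2-cell control 1 gave an adjusted p of 0.0452, and a pseudocount of 0.1 FPKM gave 0.00482. The difference was -0.84 for Ago3 (95% interval -2.62 to 0.94) and -0.27 for Drosha (95% interval -1.08 to 0.54).

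Over the whole interval from MII oocytes to 4-cell control embryos, Tnrc6b and Ago3 were called lower, against 26% of all genes tested. Tnrc6b was listed at 0 at the 4-cell stage (limma, adjusted p = 3.55e-04), and was called under all 20 alternative settings. Ago3 fell by 2.26 on the log2 scale (SE 0.75, adjusted p = 0.0435), and 4 of 20 alternatives kept this call. The call was lost when any 1 library other than a 2-cell control was left out, with adjusted p from 0.0527 (without 4-cell Ago2 kd 2) to 0.198 (without MII oocyte 1). Scaling to the same sum gave Ago3 an adjusted p of 0.127, moved the median of all genes from 0 to 0.45, and turned 1896 genes called higher and 2271 lower into 2275 and 1781. For Drosha the difference was -0.81 (SE 0.34, adjusted p = 0.0945), with both 4-cell libraries below both oocyte libraries.

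**Figure D2:**
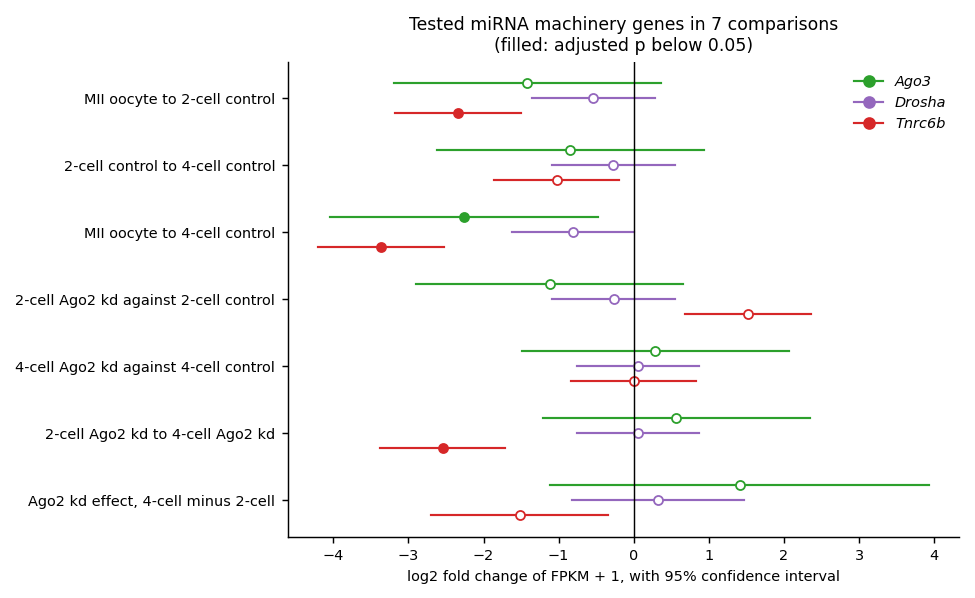
Log2 fold changes of FPKM + 1 from limma (points) with 95% confidence intervals (lines) for Ago3, Drosha and Tnrc6b in 7 comparisons, with filled points where the adjusted p was below 0.05. Tnrc6b (-2.34) was the only filled point between MII oocytes and 2-cell control embryos, and none was filled for Ago2 kd against control at the 2-cell or the 4-cell stage; Tnrc6b was listed at 0 in all 4-cell libraries, so its differences against them depend on the pseudocount.

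The comparison of Ago2 kd with control embryos asks whether the remaining machinery changes when Ago2 is depleted. In 2-cell embryos the difference for Tnrc6b was 1.52 on the log2 scale (SE 0.35, 95% interval 0.68 to 2.35), which corresponds to a 2.87-fold level of FPKM + 1. The unadjusted p of limma was 0.00363 and the adjusted p 0.238, so it passed the unadjusted threshold and failed the correction. At the unadjusted threshold 2.87% of all genes were higher and 2.9% lower, and after adjustment 0.16% were higher, with 14 genes higher and 16 lower that became 35 and 26 with the same median. The log2 change of Tnrc6b lay between 1.18 and 2.18 over the 20 alternatives, with an unadjusted p below 0.05 in all 20 and an adjusted p between 0.133 and 0.503. The main SE, interval and p pool the spread of Tnrc6b over all groups. Groups listed at 0 throughout added no spread, and the SD of log2 values was 0.0276 in oocytes. That SD was 0.474 in 2-cell controls and 0.194 in 2-cell Ago2 kd embryos. A fit of only the groups compared gave an SE of 0.33 and an unadjusted p of limma of 0.0266 (adjusted p = 0.503). The 2 oocyte libraries held more Tnrc6b than the 2-cell Ago2 kd embryos, so that the Ago2 kd embryos lay between oocytes and controls.

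Markers of stage are given beside this result. The summed level of the oocyte markers was 1697 and 1345 FPKM in 2-cell controls against 1159 and 1325 FPKM after Ago2 kd, a sum carried by Bmp15 and Oosp1. Of its members, Gdf9 measured 143 and 127 FPKM in controls against 181 and 180 after Ago2 kd. Zp2 measured 48.5 and 39.7 against 48.8 and 49.6, and Oosp2 3.98 and 6.13 against 6.35 and 7.10. These were higher in both Ago2 kd libraries than in both controls, whereas Bmp15 (787 and 436 against 392 and 316) was lower in both. Control and Ago2 kd libraries overlapped for Oosp1 (693 and 732 against 509 and 751), Zp3, Kit and Zp1. The summed level of the 6 markers of the 2-cell embryo with a row (of 8 listed) was 646 and 741 FPKM in controls against 351 and 510 FPKM after Ago2 kd. That sum was carried by Tcstv3 and Zfp352, whereas Tcstv1 was higher in both Ago2 kd libraries (56.6 and 62.1 against 90.9 and 69.5 FPKM). Tcstv3 and Usp17la (19.1 and 20.2 against 0 and 4.27 FPKM) were lower in both, and Zfp352 and Tdpoz4 overlapped. Zscan4d was listed at 0 in all libraries but 2-cell control 1. How many of all genes were separated in these ways was not counted, and no result is drawn from these orders. The part of these marker differences in the values of Tnrc6b was not tested.

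For Ago3 the difference in 2-cell Ago2 kd embryos was -1.12 (SE 0.75, 95% interval -2.90 to 0.66), with an unadjusted p of 0.179, and 1 library decided the size. Without 2-cell control 1 the difference was -0.09, and without 2-cell control 2 it was -2.15. For Drosha it was -0.27 (95% interval -1.08 to 0.54). No gene of the 3 passed after adjustment at the 2-cell stage.

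In 4-cell embryos, Ago2 kd and control groups overlapped for Ago3 (log2 difference 0.29, 95% interval -1.49 to 2.07) and Drosha (0.05, 95% interval -0.76 to 0.87). Tnrc6b was listed at 0 in both. None of the 3 genes passed the unadjusted threshold of limma, at which 7.09% of all genes were higher and 7.99% lower, and none passed after adjustment, at which 1.07% were higher and 2.53% lower. The interval for Ago3 includes changes of several fold in either direction.

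The difference between the Ago2 kd effects at the 2 stages was tested as an interaction. For Tnrc6b it was -1.52 on the log2 scale (95% interval -2.70 to -0.34, adjusted p = 0.252), with an unadjusted p of 0.0189. It equals the 2-cell effect with its sign reversed, because all 4-cell values were 0. Its interval and p rest on the spread pooled over all groups, to which the 4-cell values added none. At an unadjusted p below 0.05, 6.94% of all genes had a lower effect at the 4-cell stage. From 2-cell to 4-cell Ago2 kd embryos, Tnrc6b was called lower (limma, adjusted p = 0.00216), beside 16.1% of all genes, and remained called under all 20 alternatives. The 1601 genes called higher and 1403 lower became 1297 and 1709 with the same median. Ago3 and Drosha did not pass (adjusted p = 0.592 and 0.948). The comparisons at each stage share their libraries, and their values are given side by side only.

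The 5 genes below 1 FPKM were tested only when the filter on low values was dropped, a fit over 20208 genes. With a pseudocount of 1 FPKM, 0 of 35 tests (5 genes in 7 comparisons) passed adjustment by limma and 3 had an unadjusted p below 0.05. One of these was Dgcr8 in 4-cell Ago2 kd against control embryos (log2 difference 0.06, unadjusted p of limma 0.0433, adjusted p = 0.529). With a pseudocount of 0.1 FPKM, 0 of 35 passed adjustment and 2 had an unadjusted p below 0.05. These 2, on the scale of the smaller pseudocount, were a difference of 1.53 for Ago4 between oocytes and 4-cell control embryos (SE 0.46, adjusted p = 0.0577) and one of -1.23 for Tnrc6a between oocytes and 2-cell control embryos (SE 0.43, adjusted p = 0.180). The difference of Ago4 between Ago2 kd and control embryos was -0.75 at the 2-cell and -0.90 at the 4-cell stage (adjusted p = 0.766 and 0.640).

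Other genes of the pathway were taken from 5 lists of 64 genes, of which 48 had a row and 32 were tested. They were chosen with earlier results of these data known, and their counts describe these lists only. In 2-cell Ago2 kd against control embryos, 0 of 32 were called by limma and 0 had an unadjusted p below 0.05, beside 0.16% of all genes called higher and 0.183% called lower, and the median log2 change was -0.01 beside 0 for all genes. Without 2-cell Ago2 kd 1 the decapping cofactor gene Dcp1a, listed at 0 in 2-cell Ago2 kd 2, was called lower. In 4-cell Ago2 kd against control embryos, 0 of 32 were called, beside 1.07% of all genes higher and 2.53% lower, and 2 were lower at an unadjusted p below 0.05, beside 7.99% of all genes. These 2 were Ddx5, an RNA helicase of the Drosha complex (-1.05, adjusted p = 0.259), and Ajuba, a LIM protein that binds Argonautes (-2.50, adjusted p = 0.311), named after their values were seen. The median change was -0.30 beside 0 for all genes, and -0.01 without 4-cell Ago2 kd 1. In that library Ncbp1, Fkbp4 and Trim71 were listed at 0 and Ran, Tsn and Hsp90aa1 stood at 0.109, 0.131 and 1.71 FPKM, against 30.5, 93.8, 17.9, 20.8, 103 and 253 FPKM in 4-cell Ago2 kd 2.

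The count of 0 in 4-cell Ago2 kd against control embryos moved with single libraries. Without 4-cell Ago2 kd 1, Ajuba alone was called lower. Without 4-cell Ago2 kd 2, which leaves the library that stands apart, Ncbp1, Fkbp4, Ran and Trim71 were called lower, and without 4-cell control 2 Safb alone was called higher. These genes were named after their values were seen.

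From 2-cell to 4-cell control embryos 8 of 32 genes were called higher and 4 lower, beside 20.5% and 17.1% of all genes, with a median change of 1.42 beside 0.24. Over the 20 alternatives the counts lay between 3 and 11 higher and between 3 and 6 lower, with more genes higher in 16, equal counts in 1 and more genes lower in 3. The counts became 5 and 6 with the same median, 5 and 5 with the same sum, 4 and 3 with no filter, and 3 and 4 without 2-cell control 2 or without 4-cell control 2. Leaving out any 1 oocyte or control library gave between 3 and 5 higher and 3 or 4 lower. Of the 8 tested partners of primary miRNA processing and export, 4 were higher and 0 lower. The cap-binding protein gene Ncbp2 was listed at 0 in all 4 libraries of 2-cell embryos and measured 39.7 and 50.5 FPKM in 4-cell controls (adjusted p = 1.53e-04), after 38.9 and 48.6 FPKM in oocytes. Its partner Ncbp1 was listed at 0 in oocytes and 2-cell embryos and measured 46.6 and 48.9 FPKM in 4-cell controls (adjusted p = 0.0193). All 20 alternatives kept the call for Ncbp2 and 15 that for Ncbp1.

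Of the 11 tested genes of RISC loading and Argonaute regulation, 3 were higher and 0 lower from 2-cell to 4-cell control embryos. All genes tested had 20.5% called higher and 17.1% lower in this step. Fkbp4, a co-chaperone of HSP90, was listed at 0 in both oocyte libraries and in all 2-cell libraries and measured 93.1 and 154 FPKM in 4-cell controls (adjusted p = 0.0243), a call kept by 11 of 20 alternatives. Ajuba stood at 2.57 and 0 FPKM in the 2-cell controls against 14.5 and 15.9 FPKM in 4-cell controls (change 3.10, adjusted p = 0.0495), a call that 4 of 20 alternatives kept. Hsp90ab1, named after its values were seen, rose from 84.1 and 116 to 760 and 867 FPKM (change 3.03, limma, adjusted p = 5.22e-04). All 20 alternatives kept that call.

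Of the 9 tested silencing effectors recruited by TNRC6 proteins, 1 was called higher and 3 lower, beside 20.5% and 17.1% of all genes. The decapping enzyme gene Dcp2 measured 76.1 and 90.4 FPKM in oocytes, 44.0 and 51.7 in 2-cell and 0.626 and 1.44 in 4-cell controls (change -4.61 from 2-cell to 4-cell, adjusted p = 0.00119). Eif4enif1, which encodes the eIF4E-binding protein 4E-T, measured 147 and 123 FPKM in oocytes, 35.0 and 46.1 in 2-cell and 1.45 and 2.46 in 4-cell controls (change -3.82, adjusted p = 0.00112). Both genes kept this call under all 20 alternatives. Gigyf2, named after its values were seen, was the effector called higher (change 2.64, limma, adjusted p = 0.00706). Dcp2 and Eif4enif1 fell in the step in which Tnrc6b reached values listed at 0. In this step 17.1% of all genes were called lower and Tnrc6b itself was not called, so no link to Tnrc6b is drawn.

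Of the 3 tested Dicer partners and precursor modifiers, 0 were called in either direction over this step, beside 20.5% of all genes higher and 17.1% lower. Trim71 alone among the 3 had an unadjusted p below 0.05. The 1 tested piRNA factor, Henmt1, which methylates the ends of piRNAs, measured 4.67 and 5.35 FPKM in 2-cell and 0 and 0.0463 FPKM in 4-cell controls (adjusted p = 0.00928). Henmt1 had been at 8.17 and 6.21 FPKM in oocytes.

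**Figure D3:**
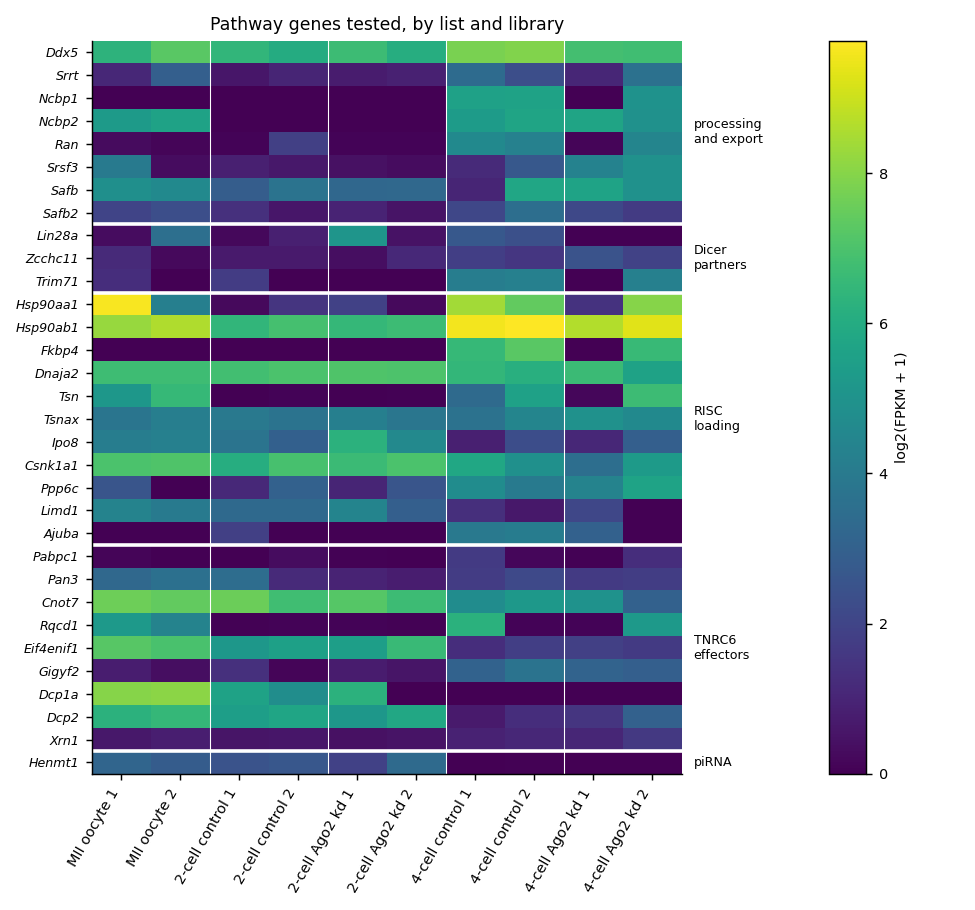
Levels as log2(FPKM + 1), from dark (0) to yellow, of the 32 tested pathway genes (rows, by list) in the 10 libraries (columns). Dcp2 and Eif4enif1 were high in oocytes and low in all 4-cell libraries, and Ncbp1 and Fkbp4 were listed at 0 in 4-cell Ago2 kd 1 but at 30.5 and 93.8 FPKM in 4-cell Ago2 kd 2.

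From MII oocytes to 2-cell control embryos 0 of 32 genes were called higher and 3 lower, beside 6.35% and 14% of all genes. These were Ncbp2, listed at 0 in 2-cell embryos (adjusted p = 2.94e-04), the chaperone gene Hsp90ab1 (-1.80, adjusted p = 0.00725, from 308 and 388 FPKM to 84.1 and 116 FPKM) and Eif4enif1 (-1.72, adjusted p = 0.0409). The call for Eif4enif1 was kept by 5 of 20 alternatives, with an adjusted p up to 0.529, that for Hsp90ab1 by 17 and that for Ncbp2 by all 20. The count lower lay between 1 and 6 over the alternatives. From MII oocytes to 4-cell control embryos 6 were called higher and 7 lower, beside 21.7% and 26% of all genes, and the alternatives gave between 1 and 8 higher and between 3 and 8 lower. Leaving out 1 oocyte or 4-cell control library gave 2 and 4 (without MII oocyte 1), 3 and 3 (without MII oocyte 2), 2 and 5 (without 4-cell control 1) and 1 and 6 (without 4-cell control 2). Dcp1a had the largest fall among the effectors, from 251 and 270 FPKM in oocytes to values listed at 0 in all 4-cell libraries (adjusted p = 0.00887), with 47.7 and 26.7 FPKM in 2-cell controls. Of the 11 Argonaute regulators 3 were called higher and 2 lower, with the largest changes in Fkbp4 (adjusted p = 0.0188) and Ajuba (adjusted p = 0.0154), both listed at 0 in both oocyte libraries. Of 20 alternatives, 19 kept the call for Dcp1a, 15 that for Fkbp4 and 14 that for Ajuba.

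From 2-cell to 4-cell Ago2 kd embryos 5 of 32 genes were called higher and 7 lower, beside 18.3% and 16.1% of all genes. Ncbp2 (listed at 0 in 2-cell, 51.6 and 30.0 FPKM in 4-cell Ago2 kd embryos, adjusted p = 2.21e-04) and Eif4enif1 (-4.28, adjusted p = 8.71e-04) moved as in controls. Ncbp1 and Fkbp4 were not called in Ago2 kd embryos, where they were listed at 0 in 4-cell Ago2 kd 1 and at 30.5 and 93.8 FPKM in 4-cell Ago2 kd 2. The library 4-cell Ago2 kd 1 stands apart in such values, as given above. Without it 9 genes were called higher and 6 lower, and over the 20 alternatives the counts lay between 2 and 9 higher and between 1 and 8 lower, with 3 and 3 without 2-cell Ago2 kd 1. In the test of the difference between the Ago2 kd effects at the 2 stages, 0 of 32 genes were called by limma and 0 had an unadjusted p below 0.05. Without 4-cell Ago2 kd 2 Ncbp1 and Fkbp4 were called with a lower effect at the 4-cell stage, and a higher one was called for Safb without 4-cell control 2 and for Dcp1a without 2-cell Ago2 kd 1.

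The genes whose pattern was nearest to Tnrc6b and Ago3 were found by the root mean square difference of log2(FPKM + 1) over the 10 libraries, after centring each gene on its mean. For Tnrc6b these were Gm15706 (0.324), the cell adhesion gene Ntm (0.326) and Lrrfip2 (0.370). Ntm measured 6.70 and 6.92 FPKM in oocytes and was listed at 0 in all 4-cell libraries, and at the 2-cell stage it stood at 0 and 2.58 FPKM in controls against 3.12 and 3.49 after Ago2 kd. For Lrrfip2 these were 26.3 and 27.0 against exactly 61.2438 FPKM in both Ago2 kd libraries. The marker Tcstv3 also had 1 value, 134.104 FPKM, in both of these libraries. Such equal values are not read as agreement between replicates, and their origin was not tested. For Ago3 the nearest genes were Tbp (0.408), Mtor (0.420) and Ankrd42 (0.457), which encode the TATA-binding protein, a growth kinase and an ankyrin repeat protein. All 3 were high in 2-cell control 1 and low in 2-cell control 2, with Mtor at 5.77 and 0.223 FPKM. The likeness to Ago3 thus includes the gap between the 2-cell control replicates. The genes nearest to Tnrc6b and to Ago3 were chosen over these same libraries. Values they share with Tnrc6b or Ago3 follow from that choice and are no separate support.

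**Figure D4:**
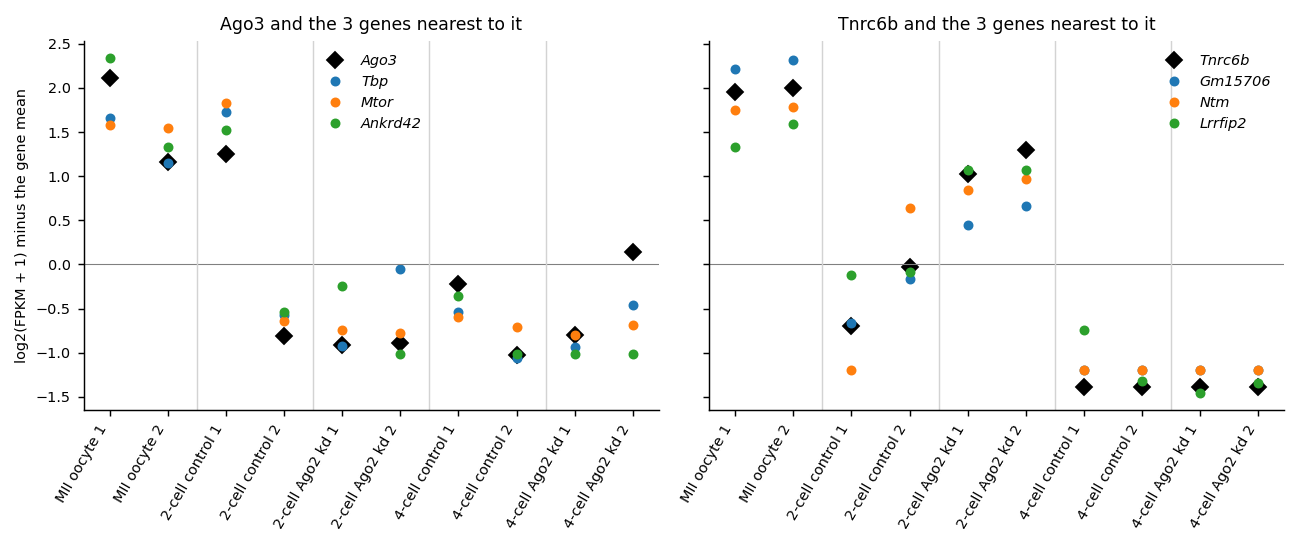
Log2(FPKM + 1) minus the mean of each gene over the 10 libraries, for Ago3 (left) and Tnrc6b (right) as diamonds and for the 3 genes nearest to each as circles. In the left panel Ago3 and all 3 neighbours lie above 0 in 2-cell control 1 and below 0 in 2-cell control 2, and in the right panel Tnrc6b and all 3 neighbours lie above 0 in both 2-cell Ago2 kd libraries. The neighbours were chosen for likeness over these same libraries, so shared positions follow from the choice.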

How the data were processed

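Reads were trimmed and aligned by the authors to GRCm38 (HISAT2 2.1.0), and the deposited FPKM, 1 value per gene name and library, come from StringTie. No read counts were used here, so the count test of the study (DESeq2) could not be run, library depth is unknown and counting error cannot be given. For 3098 genes the oocyte values could be set against a second listing by the authors: values were equal (within 0.1%) for all 3098 genes in each control embryo library, for 195 and 176 in the 2 oocyte libraries, and for 3019 in the sum of both, so the spread between oocyte libraries is uncertain.

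The deposited FPKM were taken as log2(FPKM + 1), unscaled, for 8726 genes that reached 1 FPKM in 2 or more libraries, and fitted with limma 3.58.1 in R 4.3.3. The model held 5 group means over 10 libraries (5 residual degrees of freedom), with moderated variances (trend, robust). The spread of a gene was thus pooled over all groups, including any group without spread. Tests were two-sided, and p-values were adjusted by Benjamini-Hochberg over all genes tested. A permutation of 2 against 2 libraries cannot give a p below 0.333, so none is given. In a simulation of 4-cell Ago2 kd against control on 8726 genes, 179 of 200 genes given a log2 change of 3 and 7 unchanged genes were called, and smaller changes were not simulated. Its noise was normal, with a spread smoothed over mean level, and did not copy genes lost in 1 replicate, as in 4-cell Ago2 kd 1. The shares recovered and wrongly called among such genes are thus unknown. The members, the pathway lists and the markers were chosen with earlier results of these data known. Per list and comparison, at most the 2 called genes with the largest change are named, and others are said to be named after their values were seen. Genes nearest to a member were sought where its highest group mean was at least 5 FPKM, and 3 are named. Alternatives are given in the closing section. Positions come from GENCODE M21 (GRCm38), and miRNA sequences from RefSeq. Small RNA sequences come from a shortened listing of the study and were matched to GENCODE transcripts with up to 2 mismatches. Figures were drawn with matplotlib 3.10.9.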

Additional observations from a re-analysis of the deposited data

How the results depend on the processing

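The number of genes called among Ago3, Drosha and Tnrc6b was compared under 20 alternatives. From MII oocytes to 2-cell control embryos the count went from 1 to 0 when libraries were scaled to the same sum. From 2-cell to 4-cell control embryos it went from 0 to 1 with a pseudocount of 0.1 FPKM, with the same sum, with the same median, and with no filter and a pseudocount of 0.1 FPKM (chosen after seeing the data). From MII oocytes to 4-cell control embryos it went from 2 to 1 with a pseudocount of 0.1 FPKM, no filter, the same sum, the same median, quantile normalization, only the groups compared, no filter with a pseudocount of 0.1 FPKM, and the oocyte libraries as 1 mean (the last 2 chosen after seeing the data). When each library was left out in turn, the counts lay between 0 and 1 for 2-cell to 4-cell and between 1 and 2 for MII oocyte to 4-cell control embryos. In the other comparisons with Ago2 kd embryos and the interaction the counts did not move. No log2 change of a member with an unadjusted p below 0.05 reversed.

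No strong pairing by replicate number was seen, as the correlation of deviations between same-numbered libraries lay between -0.09 and 0.09 in 10 pairs of groups. Whether same-numbered libraries were collected together remains unknown. With the replicate number as a block, the 2-cell Ago2 kd effect of Tnrc6b had an adjusted p of 0.363, the fall of Ago3 from MII oocytes to 4-cell controls one of 0.0464, and the counts of members called did not change. The block took the genes called in 2-cell Ago2 kd against control from 14 higher and 16 lower to 6 and 11, and those of the interaction from 54 and 131 to 26 and 88. The limits are 2 libraries a group, unknown depth and values near 0 for widely used genes. Over all genes, those 14 and 16 became 27 and 28 with a pseudocount of 0.1 FPKM, 43 and 35 with no filter, 32 and 31 with the same sum, 35 and 26 with the same median, 28 and 21 with quantile normalization, 29 and 19 with variances moderated without the robust option, and 31 and 29 with no filter and a pseudocount of 0.1 FPKM. Fits of only the groups compared took 93 higher and 221 lower in 4-cell Ago2 kd against control to 37 and 85, and 1601 and 1403 from 2-cell to 4-cell Ago2 kd to 774 and 894. Using the oocyte libraries as 1 mean took 554 and 1224 from MII oocyte to 2-cell control to 221 and 729.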
